A study of Rattus norvegicus with 8 samples.

Results

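Heparan sulfate proteoglycans and the enzymes that build and sulfate their chains were followed through 8 RNA-seq libraries of compartmentalised rat hippocampal neurons. The genes described are 4 glypicans (Gpc1, Gpc2, Gpc4, Gpc6), 3 syndecans (Sdc2, Sdc3, Sdc4), the chain polymerase Ext1 and the sulfotransferase Hs6st1. The set also holds the carbohydrate sulfotransferase Chst2, which does not act on heparan sulfate. All 10 genes were picked by symbol. They were among the 28909 symbols of the count table and among the 14309 genes with enough reads to be tested. Gpc1 and Chst2 were chosen by their measured PTX responses, which differed between the compartments, so that their PTX values are given as a description without a test.

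Primary neurons from embryonic Sprague-Dawley rats were grown on filter inserts, whose pores let axons and dendrites through to the lower side while the somata stay on the upper side. Cultures received picrotoxin (PTX), a blocker of the GABA-A receptor that raises network activity, or a mock treatment for 48 h from day 18 to day 20 in vitro, and ribosome-depleted RNA of each compartment was sequenced. The 4 groups, which carry no genetic change, are somata mock, somata PTX, processes mock and processes PTX, with 2 libraries each. The labels do not say whether the 2 libraries of a group came from separate cultures, so the spread between them may be partly technical.

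Heparan sulfate is a long sulfated sugar chain carried by a few core proteins. Glypicans are held on the outer face of the plasma membrane by a lipid anchor, syndecans cross it, and the chains of both bind growth factors, morphogens and synaptic adhesion proteins. The chain is started on a linker sugar, extended by the Ext1 and Ext2 polymerase, and then sulfated at defined positions, and its sulfation pattern sets which proteins it binds. In brain, glypicans and syndecans act in axon guidance, in spine maturation and at excitatory synapses, and glypicans released by astrocytes promote the recruitment of AMPA receptors.

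Library totals ranged from 12290890 to 18455662 counts, but mitochondrial genes took 68.5% to 72.5% of the counts in processes and 22.6% to 26.7% in somata. Genes outside the mitochondrial genome were left with 4702054 to 5491237 counts per library in processes and 9517542 to 11227599 in somata, so that 1 CPM (the usual counts per unit of library size, here after TMM scaling) stood for 8.52 to 9.95 reads in processes and 23.5 to 27.8 reads in somata. Neuron markers were detected throughout, and their 8 genes summed to 1920 to 2290 CPM in somata against 4130 to 5520 CPM in processes. Map2 had means of 886 and 4130 CPM there, while 6 of the 8 were called lower in processes. The 10 astrocyte markers summed to 3250 to 4560 CPM in somata against 11500 to 15000 CPM in processes. Gfap was the largest part of that sum, at means of 1490 and 9250 CPM, and 6 of the 10 were called higher and 2 lower in processes. Over all tested genes 31% were called higher and 31.9% lower there. The summed levels of 8 oligodendrocyte lineage markers were 271 to 454 CPM in somata against 471 to 648 CPM in processes. Of 7 vascular and fibroblast markers, the 6 in the table summed to 20.8 to 56.8 CPM in all libraries, with the endothelial gene Cldn5 at 0 in all groups. Of 7 microglia markers, the 6 in the table summed to at most 2.12 CPM, and Cx3cr1 and C1qa were at 0 in both process groups. After PTX, 2 of 8 neuron markers were called higher (the GABA synthesis genes Gad1 and Gad2) and 1 lower (Rbfox3) in somata. In processes 2 were called higher (Gad2 and the glutamate transporter Slc17a7). Over all genes 2.09% were called higher and 1.5% lower in somata, and 1.64% and 2.1% in processes. None of the 8 oligodendrocyte lineage markers had an unadjusted p under 0.05 after PTX in either compartment, and of the 4 tested vascular and fibroblast markers 1 did in somata and 0 did in processes, with 0 called by edgeR. With the replicate number added to the fit as a block, the neuron markers had 2 called higher and 4 lower in somata and 3 higher and 4 lower in processes. The block also gave 1 oligodendrocyte lineage marker lower in each compartment and 1 vascular and fibroblast marker higher in somata. Of all genes it called 14% in somata and 11.2% in processes, and 15.6% and 16.6% had an unadjusted p under 0.05 without it. In bulk RNA a change in the number of cells of a type cannot be told apart from a change in RNA per cell.

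RefSeq promoter windows on the GRCr8 assembly, a later assembly than the one the reads were mapped to, were found for 6 of the 10 genes. Those of Sdc3, Sdc4 and Chst2 are shown because Sdc3 is the member called after PTX and because Sdc3, Sdc4 and Chst2 are the members called higher in processes. Each sequence is the 250 bases before the annotated start, 5′ to 3′ on the gene's strand, and capitals mark GC boxes (GGGCGG on either strand, with overlapping matches counted).
Sdc3: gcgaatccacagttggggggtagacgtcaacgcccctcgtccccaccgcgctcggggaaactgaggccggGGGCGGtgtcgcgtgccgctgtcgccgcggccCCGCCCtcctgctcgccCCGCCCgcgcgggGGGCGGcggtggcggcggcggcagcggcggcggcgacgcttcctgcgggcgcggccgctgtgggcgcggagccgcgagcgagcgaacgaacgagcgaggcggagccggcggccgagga
Sdc4: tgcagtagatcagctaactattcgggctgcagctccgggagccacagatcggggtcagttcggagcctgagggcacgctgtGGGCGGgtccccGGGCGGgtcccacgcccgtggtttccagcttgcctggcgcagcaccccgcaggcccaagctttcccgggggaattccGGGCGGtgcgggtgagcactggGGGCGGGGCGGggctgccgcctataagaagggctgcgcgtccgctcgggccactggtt
Chst2: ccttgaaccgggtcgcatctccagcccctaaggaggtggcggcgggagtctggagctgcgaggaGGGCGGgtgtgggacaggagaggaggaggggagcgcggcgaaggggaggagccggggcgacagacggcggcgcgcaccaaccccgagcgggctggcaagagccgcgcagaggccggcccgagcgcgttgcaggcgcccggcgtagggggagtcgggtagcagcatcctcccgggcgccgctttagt
The windows lie at chr5:148249542-148249791 on the plus strand for Sdc3, at chr3:173592924-173593173 on the minus strand for Sdc4 and at chr8:104845962-104846211 on the minus strand for Chst2. Sdc3 had 4 GC boxes at a GC content of 80%, Sdc4 had 5 at 70% and Chst2 had 1 at 73.6%. Hs6st1 also had 1 GC box, Gpc2 had 2 and Gpc4 had 4, while 30.5% of 33469 RefSeq promoters of this length held at least 1 and the median GC content was 51.2%. The cAMP response element TGACGTCA (in 1.59% of all promoters), the AP-1 site TGANTCA (6.34%) and the E-box CACGTG (5.59%) were not matched in any of the 6 windows. The shorter core TGACG of the cAMP response element, which 18.2% of all promoters hold, was matched in Sdc3 and in none of the other 5 windows. From an ATG to its end, the Hs6st1 window reads as codons without a stop. It may therefore hold coding sequence, and its matches may not describe a promoter. The matches describe letters in a window and not factor binding.

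Sdc3 fell in somata after PTX, the only 1 of the 8 tested members to pass in either compartment. Sdc3 encodes the syndecan known as N-syndecan, a receptor for the growth factor pleiotrophin on neurons. In somata Sdc3 was measured at 116 and 119 CPM in the mock libraries and at 74.7 and 70.7 CPM in the PTX libraries. In processes the mock libraries had 149 and 127 CPM and the PTX libraries 106 and 88.8 CPM. In both compartments both PTX libraries lay below both mock libraries. The fall was 1.61-fold in somata, or -0.69 on the log2 scale (standard error 0.122, adjusted p = 0.0118, edgeR quasi-likelihood test with Benjamini-Hochberg adjustment over 14309 genes). In processes the value was -0.50 (standard error 0.125, adjusted p = 0.0533), which missed the threshold of 0.05 and passed it with the replicate number as a block (adjusted p = 0.000939). The somatic call rests on all 4 somata libraries, since leaving out any 1 of them gave log2 fold changes of -0.74 to -0.66 with adjusted p between 0.0605 and 0.0915, while with the block it was 9.56e-06. The PTX effect of Sdc3 in processes minus that in somata was 0.19 on the log2 scale (standard error 0.174, adjusted p = 1).

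The other syndecans showed no called PTX change. Sdc4, a syndecan of focal adhesions, had 57.5 and 67.2 CPM in mock somata and 58.3 and 64.4 CPM in PTX somata, and 85.3 and 98.6 CPM in mock processes against 84.2 and 96.9 CPM in PTX processes. The mock and PTX values of Sdc4 overlapped in both compartments, at -0.02 on the log2 scale in each (standard error 0.127, adjusted p = 0.965 in somata and standard error 0.13, adjusted p = 0.966 in processes). Sdc2, a syndecan of dendritic spines, had 43.3 and 41.3 CPM in mock somata and 38.4 and 35.5 CPM in PTX somata, and 27.8 and 31.1 CPM in mock processes against 24.1 and 31.1 CPM in PTX processes. Its PTX somata libraries lay below the mock libraries, and its process libraries overlapped. The log2 fold changes of Sdc2 were -0.19 (standard error 0.127, adjusted p = 0.558) in somata and -0.09 (standard error 0.143, adjusted p = 0.818) in processes.

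**Figure D1:**
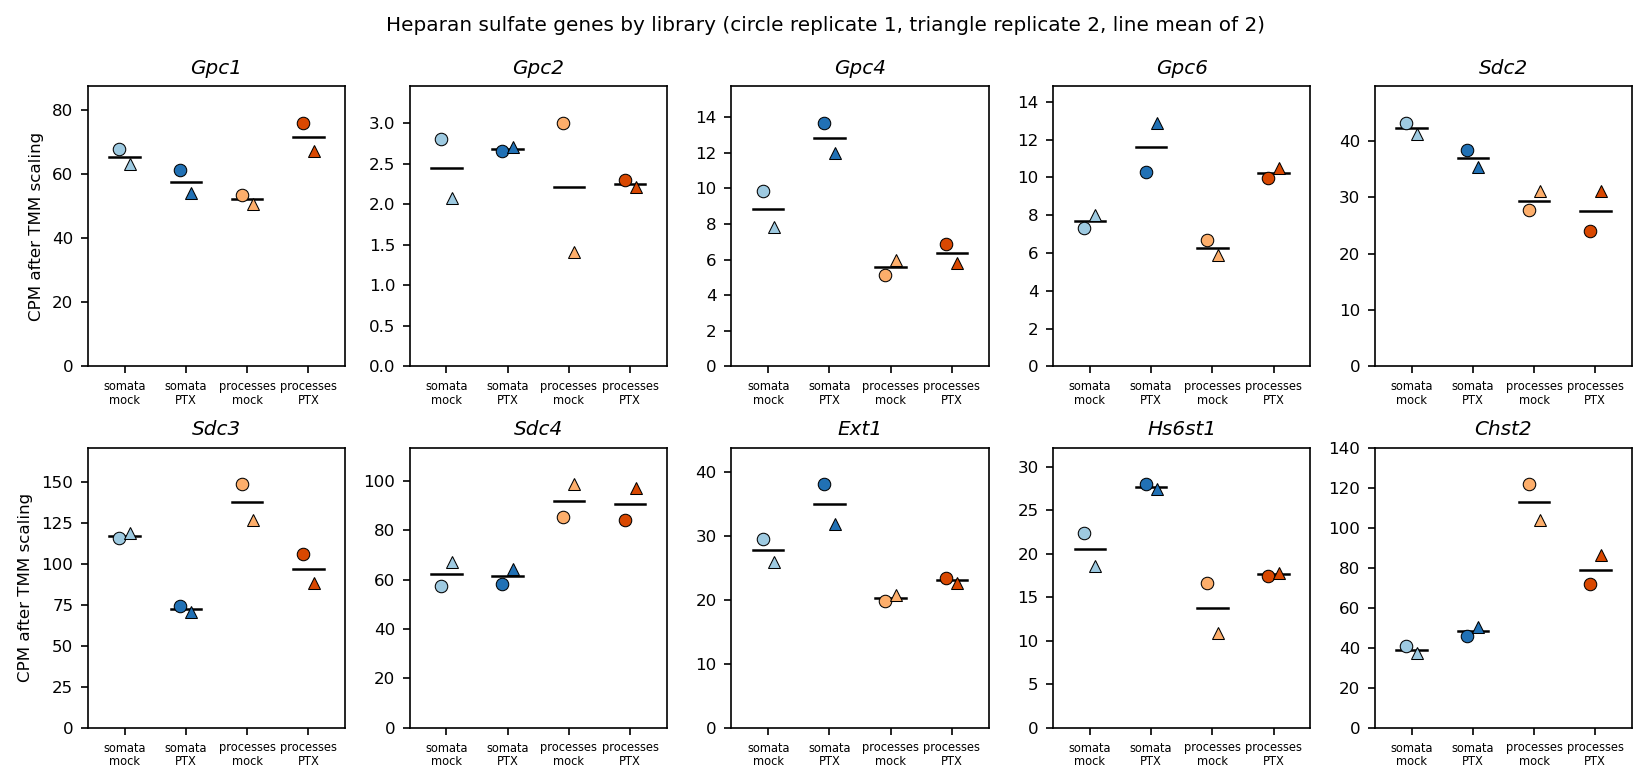
Level of each of the 10 genes in CPM after TMM scaling (linear axis from 0) in the 4 groups. A circle is replicate 1, a triangle replicate 2 and a line the mean of 2 libraries. Sdc3 is lower in both PTX groups, Chst2 is at 104 to 122 CPM in mock processes against 37.5 to 40.9 CPM in mock somata, and Gpc1 is lower with PTX in somata and higher with PTX in processes.

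Of the glypicans, Gpc4 and Gpc6 had higher values after PTX in somata without passing the threshold. Both encode glypicans that astrocytes release and that promote the maturation of excitatory synapses. Gpc6 was measured at 7.31 and 8.03 CPM in mock somata and at 10.3 and 12.9 CPM in PTX somata. In processes it was at 6.69 and 5.87 CPM in the mock libraries and at 9.99 and 10.5 CPM in the PTX libraries. Every PTX library of Gpc6 lay above the mock libraries of its compartment, with log2 fold changes of 0.59 in somata (standard error 0.155, adjusted p = 0.0674) and 0.70 in processes (standard error 0.191, adjusted p = 0.0764). With the replicate block both values passed, with adjusted p of 0.00397 in somata and 0.0191 in processes.

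Gpc4 had 9.86 and 7.83 CPM in mock somata and 13.7 and 12 CPM in PTX somata, which do not overlap. In processes it had 5.13 and 5.99 CPM in the mock libraries and 6.89 and 5.83 CPM in the PTX libraries, which do, on 46 to 60 reads per library. The log2 fold changes of Gpc4 were 0.54 in somata (standard error 0.162, adjusted p = 0.108, and 0.00627 with the block) and 0.19 in processes (standard error 0.218, adjusted p = 0.728). The difference between them was -0.35 (standard error 0.272, adjusted p = 1). Astrocyte markers summed to 4170 to 4560 CPM in mock somata and 3250 to 4290 CPM in PTX somata, and to 13400 to 15000 CPM in mock processes and 11500 to 12800 CPM in PTX processes, and 1 of the 10, the gap junction gene Gja1, was called lower in PTX somata (log2 fold change -0.61, adjusted p = 0.0215). Gfap, the largest part of these sums, was not called by edgeR (log2 fold change -0.38 in somata and -0.31 in processes). With the block 2 of the 10 astrocyte markers were called lower in somata, and 1 was called higher and 1 lower in processes. Over all genes 1.5% were called lower in somata without the block, and the block called 14% in somata and 11.2% in processes. The part of astrocytes in the values of Gpc4 and Gpc6 was not tested.

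Gpc2, a glypican of growing axons, had few reads in these libraries. It had 53 to 74 reads in the somata libraries and 12 to 27 reads in the process libraries, where the mock replicates alone spanned that whole range. Its log2 fold changes after PTX were 0.14 (standard error 0.292, adjusted p = 0.898) in somata and 0.02 (standard error 0.387, adjusted p = 0.99) in processes.

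Both enzymes of heparan sulfate assembly had higher values in every PTX library than in the mock libraries of the same compartment, and neither passed the threshold. Ext1, a subunit of the polymerase, had 29.5 and 26 CPM in mock somata against 38.1 and 31.9 CPM in PTX somata, and 19.8 and 20.7 CPM in mock processes against 23.4 and 22.7 CPM in PTX processes. Its log2 fold changes were 0.34 (standard error 0.121, adjusted p = 0.19, and 0.0207 with the block) and 0.19 (standard error 0.14, adjusted p = 0.567). Hs6st1, which adds sulfate to glucosamine of the chain, had 22.4 and 18.6 CPM in mock somata against 28 and 27.4 CPM in PTX somata, and 16.6 and 10.9 CPM in mock processes against 17.5 and 17.8 CPM in PTX processes. The 2 mock process libraries of Hs6st1 stood further apart than the groups did. Its log2 fold changes were 0.43 (standard error 0.159, adjusted p = 0.199, and 0.00955 with the block) and 0.35 (standard error 0.19, adjusted p = 0.394).

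Gpc1 and Chst2 are described here by the values that led to their choice. Gpc1, a glypican that binds Slit proteins, had 67.8 and 63.2 CPM in mock somata and 61.3 and 54.1 CPM in PTX somata. In processes Gpc1 was at 53.5 and 50.9 CPM in the mock libraries and at 76.2 and 67.2 CPM in the PTX libraries. The PTX libraries thus lay below the mock libraries in somata, by 1.13-fold (log2 fold change -0.18, standard error 0.112), and above them in processes, by 1.37-fold (0.46, standard error 0.118). The difference between these responses was 0.64 on the log2 scale (standard error 0.163).

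Chst2 encodes a sulfotransferase that adds sulfate to N-acetylglucosamine of keratan sulfate and of selectin ligands and does not act on heparan sulfate. Chst2 was measured at 40.9 and 37.5 CPM in mock somata and at 45.8 and 50.7 CPM in PTX somata. In processes it was at 122 and 104 CPM in the mock libraries and at 71.8 and 86.7 CPM in the PTX libraries. The PTX libraries of Chst2 lay above the mock libraries in somata, by 1.23-fold (log2 fold change 0.30, standard error 0.129), and below them in processes, by 1.43-fold (-0.51, standard error 0.13). The difference was -0.81 (standard error 0.183), opposite in sign to that of Gpc1. With 1 library left out at a time, the differences were between 0.55 and 0.74 for Gpc1 and between -0.96 and -0.68 for Chst2. Their kept signs are no check, because the PTX and mock libraries of these genes did not overlap in either compartment. The process response of Chst2 was -0.66 without replicate 2 of processes PTX and -0.38 without replicate 1.

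**Figure D2:**
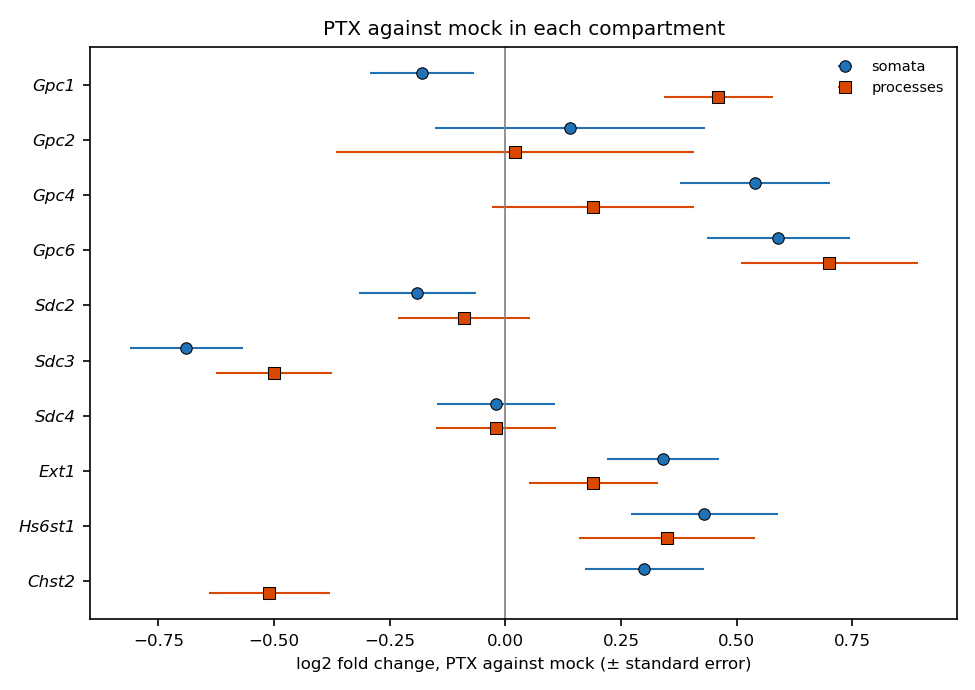
Log2 fold change of PTX against mock (x axis) for each gene, with circles for somata, squares for processes and bars for 1 standard error of the fit over 8 libraries. The pairs of Gpc1 (-0.18 and 0.46) and Chst2 (0.30 and -0.51), for which these genes were chosen, straddle 0, while Sdc3 (-0.69 and -0.50) is below 0 and Gpc6 (0.59 and 0.70) above 0 in both compartments.

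Counted together, 0 of the 8 tested members were called higher and 1 lower in somata after PTX, where 2.09% of all tested genes were called higher and 1.5% lower. The median log2 fold change of the 8 was 0.24 against -0.01 over all genes. In processes 0 of 8 were called in either direction by edgeR, where 1.64% of all genes were called higher and 2.1% lower, and the median was 0.10 against -0.01. At an unadjusted p under 0.05 there were 5 of 8 in somata and 2 of 8 in processes, against 15.6% and 16.6% of all genes. DESeq2 called 1 of the 8 in processes and the likelihood ratio test 2. With the replicate block 4 members were called higher (Gpc4, Gpc6, Ext1 and Hs6st1) and 1 lower (Sdc3) in somata, and Gpc6 higher and Sdc3 lower in processes, while the block raised the share called among all genes to 14% in somata and 11.2% in processes.

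None of the 8 members had a PTX response that differed between the compartments by edgeR, and 0 of 8 passed at an unadjusted p under 0.05. Over all genes 0% were called for this difference, with 572 genes at an unadjusted p under 0.05 and a smallest adjusted p of 0.115. The likelihood ratio test and DESeq2 each called 4 of 14309 genes and the replicate block called 15, with none of the 8 members among them. The standard errors of the difference were 0.174 for Sdc3 and 0.272 for Gpc4, which limits what 2 libraries a group can show.

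Processes and somata were compared as the mean of both process groups against the mean of both somata groups, a comparison independent of the PTX responses for which Gpc1 and Chst2 were chosen. The separate values in mock and in PTX cultures are not independent of these responses, and for Gpc1 and Chst2 they are a description. Of the 10 genes, 3 were called higher in processes (Sdc3, Sdc4 and Chst2) and 4 lower (Gpc4, Sdc2, Ext1 and Hs6st1). Over all tested genes 31% were called higher and 31.9% lower, so that calls are common here. The median of the 10 log2 fold changes was -0.21 against -0.06 over all genes.

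Chst2 stood 2.18-fold higher in processes than in somata (log2 fold change 1.12, standard error 0.0923, adjusted p = 1.87e-06, edgeR), and all 4 process libraries lay above all 4 somata libraries. The difference was 1.53 in mock cultures and 0.72 in PTX cultures. Sdc4 was higher in processes by 0.56 on the log2 scale (standard error 0.0909, adjusted p = 0.000304), with 84.2 CPM in the lowest process library and 67.2 CPM in the highest somata library, and by the same 0.56 in mock and in PTX cultures. Sdc3 was higher by 0.33 (standard error 0.0873, adjusted p = 0.00684), with overlap between the compartments because its PTX process libraries lay below its mock somata libraries.

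On the somatic side, Gpc4 was lower in processes by the widest margin of the 10, at -0.84 on the log2 scale (standard error 0.134, adjusted p = 0.000268). The enzymes Hs6st1 (-0.61, standard error 0.124, adjusted p = 0.00139) and Ext1 (-0.53, standard error 0.0926, adjusted p = 0.000524) and the syndecan Sdc2 (-0.47, standard error 0.0957, adjusted p = 0.0014) were also lower. For these 4 genes every process library lay below every somata library. Gpc1 stood at -0.01 over both treatments (standard error 0.0812, adjusted p = 0.939), made up of -0.33 in mock cultures and 0.31 in PTX cultures. Gpc6 was at -0.23 (standard error 0.123, adjusted p = 0.122) and Gpc2 at -0.19 (standard error 0.242, adjusted p = 0.506).

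These compartment values are relative to the typical gene after TMM scaling, and scaling moved them. Upper quartile scaling shifted the median of all genes by -0.19 and gave 3408 genes higher and 6221 lower, in place of 4433 and 4560. Scaling by the counts of nuclear genes without TMM shifted it by -0.46 and gave 2345 and 8398. Over both treatments Chst2 remained called higher (0.93 and 0.66). In PTX cultures alone it was at 0.26 with nuclear counts in place of 0.72, given without a test. By contrast, Sdc3 was at 0.14 (adjusted p = 0.17) and -0.13 (adjusted p = 0.194) and Sdc4 at 0.10 (adjusted p = 0.321) with nuclear counts. Gpc1 was called lower under both (-0.20 and -0.46), as was Gpc6 (-0.42 and -0.69), and Gpc2 was called lower with nuclear counts (-0.65). Astrocyte markers moved with the compartment, with 6 of 10 called higher and 2 lower in processes and mean levels of Gfap of 1490 CPM in somata against 9250 CPM in processes, and of the 8 neuron markers 2 were called higher and 6 lower. Over all genes 31% were called higher and 31.9% lower after TMM scaling. The part of astrocytes and neurons in the compartment values of the 10 genes was not tested.

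**Figure D3:**
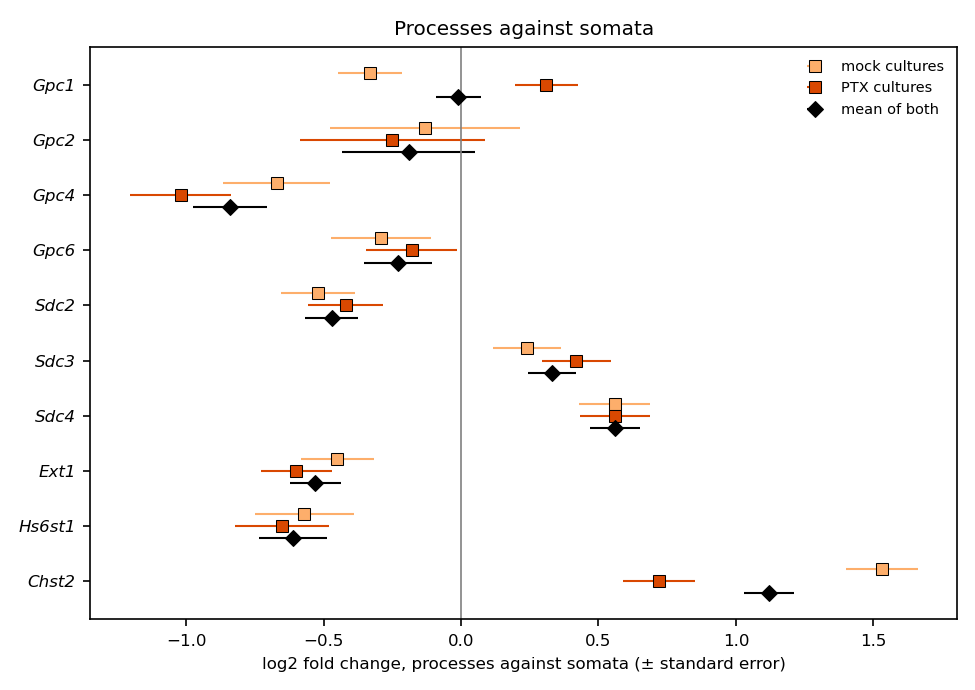
Log2 fold change of processes against somata (x axis) after TMM scaling for each gene in mock cultures (light squares), PTX cultures (dark squares) and as the mean of both (diamonds), with bars for 1 standard error. Chst2 and Sdc4 are to the right of 0 and Gpc4, Sdc2, Ext1 and Hs6st1 to the left in all 3, while Gpc1 changes side between mock (-0.33) and PTX cultures (0.31). The mock and PTX values of Gpc1 and Chst2 differ by the responses for which these genes were chosen. With nuclear counts and no TMM, Sdc3 turns to -0.13 and Gpc1 in PTX cultures to -0.14.

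The other genes of the pathway give the surroundings of the 10. A list of 62 further core proteins, heparan sulfate enzymes and carbohydrate sulfotransferases had 56 genes in the table and 48 tested. In somata 5 of the 48 rose and 2 fell after PTX, with a median of 0.04, where 2.09% of all tested genes were called higher and 1.5% lower. Among these calls, Hpse (higher) and Chst9 (lower) entered the tests only through the group where they were high. With 10 reads required in every library, 4 of 44 genes were called higher and 1 lower in somata. In processes 1 rose and 2 fell, with a median of 0.08, where the shares over all genes were 1.64% and 2.1%. None of the 48 differed between the compartments in its PTX response by edgeR, and 3 had an unadjusted p under 0.05 there. No core protein, linker or chain enzyme, heparan sulfate modifying enzyme or sulfate donor gene among them was called after PTX in either compartment without the replicate block. With the block, 1 core protein was called higher and 1 lower in somata, together with 3 modifying enzymes and 1 sulfate donor gene higher, and in processes 1 linker or chain enzyme was called lower and 1 modifying enzyme higher. The block gave 10 of the 48 higher and 5 lower in somata and 4 higher and 3 lower in processes, at 14% and 11.2% of all genes called in either direction.

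The 10 tested sulfotransferases that act on chondroitin sulfate, keratan sulfate or other glycans had 4 calls up and 2 down in somata. Of the 2 calls down, that of Chst9 entered the tests only through its mock somata reads. Over all tested genes 2.09% were called higher and 1.5% lower there. In processes the 10 had 1 call up and 1 down, against 1.64% and 2.1% of all genes. Chst3, which sulfates chondroitin, was called in both compartments. It rose from 13.1 and 14.4 CPM to 20 and 22.9 CPM in somata (log2 fold change 0.64, standard error 0.128, adjusted p = 0.0212) and from 14.9 and 14.2 CPM to 33 and 28.7 CPM in processes (1.08, standard error 0.142, adjusted p = 0.00396). Chst1, a keratan sulfate sulfotransferase, fell in both, from 46.3 and 43.8 CPM to 28.9 and 26.5 CPM in somata (-0.70, standard error 0.128, adjusted p = 0.0137) and from 26.7 and 20.4 CPM to 13.8 and 12.8 CPM in processes (-0.83, standard error 0.154, adjusted p = 0.0168). Chst1 and Chst2 act on the same class of glycan, and their PTX values had opposite signs in somata and the same sign in processes.

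Chst8, a sulfotransferase of N-linked glycans on pituitary hormones, rose in somata (1.27, standard error 0.22, adjusted p = 0.0107), as did Chst10, which makes the HNK-1 sugar of neural adhesion molecules (0.63, standard error 0.106, adjusted p = 0.00951), and Chst11, a chondroitin sulfotransferase (0.56, standard error 0.123, adjusted p = 0.0331). In processes their values were 0.63 for Chst8 (adjusted p = 0.45), 0.44 for Chst10 (adjusted p = 0.0914, and 0.0249 with the block) and 0.39 for Chst11 (adjusted p = 0.179). Chst9, a close relative of Chst8, fell in somata from 33 and 37 reads to 5 and 6 reads (-2.69, standard error 0.529). Its process libraries held at most 6 reads. Chst9 passed the read filter only through mock somata, so its call is a description. DESeq2 lost the calls of Chst9 (adjusted p = 0.0696) and Chst11 (adjusted p = 0.0651) in somata.

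Among the enzymes that break heparan sulfate down, Hpse rose in somata and Ids fell in processes. Hpse encodes heparanase, which cuts the chain. Its reads went from 15 and 13 in mock somata to 77 and 93 in PTX somata (log2 fold change 2.53, standard error 0.341). Hpse passed the read filter only through the PTX somata libraries, so its somatic call is a description. In processes its reads went from 4 and 6 to 19 and 15 (1.66, adjusted p = 0.102, and 0.0423 with the block). Ids, a lysosomal sulfatase of heparan and dermatan sulfate, fell in processes from 460 and 344 CPM to 270 and 230 CPM (-0.69, standard error 0.156, adjusted p = 0.0379), and was at -0.33 in somata (adjusted p = 0.354, and 0.0193 with the block). Leaving out 1 somata library left few of the 7 somatic calls, and the log2 fold change of Hpse was then 2.25 to 2.76. Without replicate 1 of processes mock, or without either library of processes PTX, 1 of the 3 process calls was left.

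**Figure D4:**
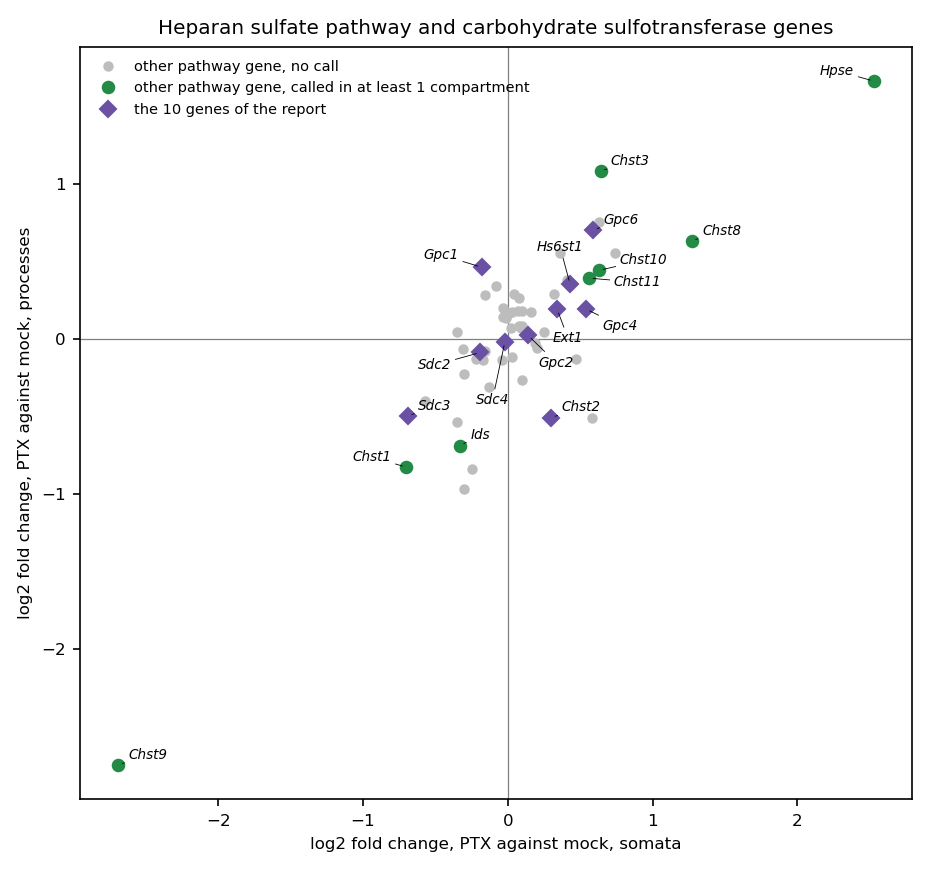
Log2 fold change of PTX against mock in somata (x axis) and in processes (y axis) for the 10 genes (diamonds) and 48 further pathway genes (circles, green where called in at least 1 compartment). Gpc1 lies in the upper left and Chst2 in the lower right quadrant, Hpse (2.53 and 1.66) and Chst3 (0.64 and 1.08) lie in the upper right, and Chst1 (-0.70 and -0.83) and Sdc3 in the lower left, while the process value of Chst9 rests on at most 6 reads a library.

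Between compartments, 30 of the 48 further genes were called lower in processes and 7 higher, with a median log2 fold change of -0.61 against -0.06 over all genes. Over all genes 31.9% were called lower and 31% higher after TMM scaling. Under upper quartile scaling the counts of the 48 were 37 and 6 with a median of -0.80. Of all 14309 genes 6221 were then lower and 3408 higher, with a median of -0.25. With nuclear counts those of the 48 were 39 and 4 with a median of -1.06. Of all genes 8398 were then lower and 2345 higher, with a median of -0.52. All 5 further core proteins were lower. Of 10 linker and chain enzymes 5 were lower and 3 higher, and of 11 modifying enzymes 7 were lower and 2 higher. The lowest values among called genes were those of the sulfotransferases Hs3st1 (-1.94, standard error 0.167, adjusted p = 2.73e-06), Hs3st5 (-1.93, standard error 0.546, adjusted p = 0.00987) and Chst8 (-1.89, standard error 0.206, adjusted p = 1.61e-05). The value of Hs3st5 rests on 2 to 6 reads per process library, and this gene entered the tests only through its somata reads. Higher in processes were Ids (1.77, standard error 0.113, adjusted p = 2.68e-07) and the linker enzymes B3gat3 (1.12, standard error 0.0824, adjusted p = 8.11e-07) and Fam20b (0.91, standard error 0.0696, adjusted p = 1.04e-06). Chst2, at 1.12, thus had the sign of 7 and not of 30 of these genes.

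The genes whose log2 CPM followed Gpc1 and Chst2 most closely over the 8 libraries were sought among the 10207 genes averaging 5 CPM or more. For Gpc1 they were Cntfr (Pearson r = 0.922), Atp2b2 (0.91) and Syt13 (0.908). For Chst2 they were Sucla2 (0.987), Gnpat (0.983) and Abcf1 (0.982). These values describe 8 libraries in 4 groups that share their scaling, and for Chst2 the compartment difference takes up most of its range.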

How the data were processed

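Ribosome-depleted RNA of 8 libraries was analysed. The authors trimmed the reads with Trimmomatic, mapped them with Subread subjunc (the submitters' processing notes name STAR) to Rnor 6.0 and counted them with featureCounts on Ensembl genes. The deposited counts are whole numbers summed by gene symbol, without normalization, so gene copies under 1 symbol are counted as 1 gene, and the strand setting of the counting is not given in the sources used here. Further deposited tables hold the authors' own PTX comparisons (log2 fold changes, log2 CPM, likelihood ratios, p-values and FDR) and were not used.

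A gene entered the tests if at least 2 libraries held over 20 reads of it (14309 of 28909 symbols). All 8 libraries were fitted with 1 coefficient per group by edgeR 4.0.16 (TMM, glmQLFit, glmQLFTest) in R 4.3.3, with Benjamini-Hochberg adjustment over all tested genes and a threshold of 0.05. Standard errors were derived from the fitted log2 fold change and the F statistic. Levels are given in TMM-scaled CPM, with a prior count of 2 wherever log2 CPM is used. Library totals were 12290890 to 18455662 counts, with less depth for nuclear genes in processes.

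Replicate numbers come from the labels, which do not say what the numbers mark. Deviations from group means of same-numbered libraries correlated across 14309 genes with r = 0.54 between mock and PTX somata and with 0.274 to 0.367 for the other 5 pairs of groups. The numbers were therefore taken to pair the libraries in the block fit, and what the correlations come from was not tested. The main tests do not use this pairing. Values with the replicate number as a block are given beside the 10 genes and the named pathway genes where they change a PTX call, and as counts for the lists.

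As alternatives, DESeq2 1.42.0, the likelihood ratio test, upper quartile scaling, scaling by nuclear counts, no filter, a filter requiring 10 reads throughout, a fit of the 4 compared libraries alone, the block and the omission of each library were tried. The 10 genes, the pathway list and the marker lists were chosen with earlier results of these data known. Named are all 10 genes, pathway genes called after PTX in either compartment, the 3 highest and 3 lowest called compartment values and the 3 genes most like Gpc1 and Chst2. The promoter sequences are from RefSeq (GRCr8).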

Additional observations from a re-analysis of the deposited data

Results flagged for a closer look

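The PTX response of Gpc1 and Chst2 had opposite directions in the compartments. Both PTX somata libraries of Gpc1 lay below both mock somata libraries while both PTX process libraries lay above their mock libraries, with a difference between the responses of 0.64 on the log2 scale. For Chst2 the order was the other way round, with a difference of -0.81. These differences were not tested here, because both genes were chosen for them.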

How the results depend on the processing

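The 8 tested members called after PTX in somata numbered 1, and 3 with the likelihood ratio test, 3 without a filter, 5 with the replicate block and 0 to 1 with 1 library left out. In processes they numbered 0, and 2 with the likelihood ratio test, 1 with DESeq2, 2 without a filter, 2 with the block and 0 to 1 with 1 library left out. The 48 further pathway genes had 7 calls in somata, 15 with the block and 1 to 7 with 1 library left out, and in processes 3, with 5 under the likelihood ratio test, 5 without a filter, 7 with the block and 1 to 3 with 1 library left out. Over all genes the calls in somata numbered 513, and 972 with the likelihood ratio test, 1141 of 22657 without a filter and 2002 with the block. In processes they numbered 535, and 949 with the likelihood ratio test, 620 with DESeq2, 1129 without a filter and 1601 with the block. The cause of these moves was not tested. The members' compartment calls numbered 7 with any library left out, and none of the 8 tested members was called for a difference in PTX response under any alternative.

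Signs turned mostly for small values, but with nuclear counts also for compartment values called after TMM scaling. The compartment value of Gpc1 was 0.01 with DESeq2 and, with 1 library left out, -0.05 to 0.04, and with nuclear counts that of Gpc1 in PTX cultures was -0.14. After TMM scaling that value was 0.31. With nuclear counts Sdc3 was -0.13 over both treatments, -0.22 in mock and -0.03 in PTX cultures. After TMM scaling Sdc3 was at 0.33 and 0.42 over both treatments and in PTX cultures, both called, and at 0.24 in mock cultures, not called. The PTX difference between compartments of Sdc4 was 0 with the block. With 1 library left out, the PTX values in somata were -0.07 to 0.37 for Gpc2 and -0.13 to 0.08 for Sdc4. In processes they were -0.42 to 0.67 for Gpc2, -0.29 to 0.08 for Sdc2 and -0.13 to 0.09 for Sdc4. The differences in PTX response were -0.56 to 0.53 for Gpc2, -0.03 to 0.29 for Gpc6, -0.09 to 0.27 for Sdc2, -0.10 to 0.12 for Sdc4 and -0.35 to 0.26 for Hs6st1. The compartment value of Gpc2 was -0.52 to 0.03 over both treatments and -0.79 to 0.31 in mock cultures, and that of Gpc6 in PTX cultures was -0.32 to 0. Nuclear transcripts had less depth in processes, so values there are less precise, and each group has 2 libraries.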
